A study of Mus musculus with 2 samples.

Results

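Mt1 and Mt2 are the mouse genes for metallothionein 1 and metallothionein 2, small cysteine-rich proteins of the cytoplasm that bind zinc and copper. Both members were found by symbol among the 32285 features of each count matrix, so the 2 members are 2 of 32285 features. They were chosen by their UMI counts in stromal cells, which were higher in the TrkA F592A library than in the TrkA WT library, so that contrast is given as a description and is not used as support for anything. The series holds 2 libraries of droplet-based single-cell RNA counts from mouse. One library, titled INMPP1, came from 3 pooled mice with TrkA F592A, a mutant form of the nerve growth factor receptor TrkA that was made so that a small-molecule inhibitor can block its kinase. The other came from 3 pooled mice with TrkA WT and is titled as the control. In both, tissue was taken from the site of a tendon injury 14 days after surgery in mice 12 weeks old. The labels do not state an inhibitor dose or schedule, or whether the TrkA WT mice were treated. With 1 pooled library per genotype there is no replicate check, no test was possible, and genotype and library cannot be told apart. Intervals are exact 95% Poisson intervals for levels, exact binomial intervals for shares and exact conditional binomial intervals for ratios, and all of them cover counting error only.

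Metallothionein genes are switched on by the zinc-sensing transcription factor MTF1, which binds short metal response elements in their promoters, and also by glucocorticoids and inflammatory cytokines. The proteins buffer free zinc, can hold copper and cadmium, and take up oxidants through their thiols. Mt1 and Mt2 are expressed in most tissues, while Mt3 is known from brain and Mt4 from stratified epithelium.

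The 4 family members lie in 1 cluster on the plus strand of mouse chromosome 8 (GRCm38, GENCODE M21), each with 3 exons. Mt4 spans chr8:94137197-94139031, Mt3 spans chr8:94152607-94154146, Mt2 (ENSMUSG00000031762) spans chr8:94172664-94173568 and Mt1 (ENSMUSG00000031765) spans chr8:94179082-94180327. The end of Mt2 and the start of Mt1 are 5514 bases apart. No stretch of 50 bases in the annotated transcripts of Mt1 or Mt2 occurred in a transcript of another gene. The 300 bases around each start in RefSeq (250 before to 50 after), build GRCm38.p6, whose starts differ from those of GENCODE above, are shown because both members had more matches to the metal response element core than most promoters. Capitals mark that core, TGCACNC or TGCGCNC, on either strand. The Mt2 window is chr8:94172368-94172667 and the Mt1 window is chr8:94178839-94179138, both on the plus strand.
Mt2: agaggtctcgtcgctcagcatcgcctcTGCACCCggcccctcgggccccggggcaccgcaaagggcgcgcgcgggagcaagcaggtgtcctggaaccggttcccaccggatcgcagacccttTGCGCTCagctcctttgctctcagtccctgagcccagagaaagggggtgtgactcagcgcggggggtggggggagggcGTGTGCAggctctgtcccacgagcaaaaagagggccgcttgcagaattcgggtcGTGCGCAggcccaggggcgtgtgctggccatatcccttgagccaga
Mt1: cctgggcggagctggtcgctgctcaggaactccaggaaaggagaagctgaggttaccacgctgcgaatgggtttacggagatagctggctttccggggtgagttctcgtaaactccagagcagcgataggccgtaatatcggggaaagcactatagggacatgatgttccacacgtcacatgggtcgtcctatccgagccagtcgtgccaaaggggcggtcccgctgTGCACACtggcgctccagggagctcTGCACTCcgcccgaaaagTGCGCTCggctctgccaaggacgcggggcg

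The core matched 4 times in the Mt2 window and 3 times in the Mt1 window. Of 32851 promoter windows of the same length, 25.7% held at least 1 match, 1.97% at least 3 and 0.517% at least 4. The windows of Mt3 and Mt4 held 1 match each, and that of Slc30a1, the zinc exporter at the plasma membrane that MTF1 also controls, held 2. A core of the antioxidant response element, TGACNNNGC on either strand, occurred 1 time in the Mt2 window and did not occur in the Mt1 window, against 12.4% of all windows with at least 1 match. These are matches of letters inside the windows only and say nothing of binding. Sequence outside the windows, downstream of the annotated starts included, was not searched.

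After filters on cells, 8449 F592A cells and 11226 WT cells were analysed, and their median depth was 17880 and 15844 UMIs (unique molecular identifiers, each 1 counted RNA molecule). The median mitochondrial share was 3.80% in F592A cells and 4.62% in WT cells. The libraries shared 764 barcodes, but only 112 F592A cells and 114 WT cells were among them, which is 1.33% and 1.02% of cells, and results that depend on them are given with and without them. Cells were assigned to types one by one from fixed marker genes, which placed 83.5% of F592A cells and 83.1% of WT cells. Stromal cells, gated on Col1a1, Col1a2, Col3a1, Dcn, Lum and Pdgfra, numbered 4110 in F592A and 5686 in WT. In F592A and WT, macrophages numbered 1439 and 2177, endothelial cells 576 and 519, mural cells 563 and 525, neutrophils 130 and 184, T or NK cells 99 and 80. Cells gated as lymphatic endothelial numbered 53 in F592A and 65 in WT. The labels call the cells tenocytes with the injured area, and the gates showed a mixture of stromal, vascular and immune cells. The F592A library also had more reads on Gm42418, a locus that overlaps ribosomal RNA sequence, at 84378 CPM (UMIs of the gene per 1000000 UMIs of the class) in F592A stromal cells and 33645 CPM in WT stromal cells.

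Mt1 was above 500 CPM in stromal cells, mural cells and macrophages of both libraries, and the highest Mt2 levels were in stromal cells. In stromal cells Mt1 stood at 1357 CPM (1350 to 1364) in F592A, against 570 CPM (566 to 574) in WT. Mt2 stood at 632 CPM (627 to 637) in F592A stromal cells, against 257 CPM (254 to 259) in WT stromal cells. The log2 ratio of F592A over WT was 1.25 (1.24 to 1.26) for Mt1, a 2.38-fold difference, and 1.30 (1.28 to 1.32) for Mt2, a 2.46-fold difference. Together the pair made up 0.199% of all UMIs of F592A stromal cells and 0.0827% of those of WT stromal cells. This is the contrast that picked both genes. Among the 5439 genes with at least 20 CPM in either library, Mt2 held rank 5 and Mt1 rank 6 by log2 ratio. Of 13677 genes with at least 100 UMIs in stromal cells, 3.2% were 1.5-fold or more higher in F592A, 0.753% were 2-fold or more higher and 5.03% were 1.5-fold or more lower, and the median log2 ratio was -0.08.

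**Figure D1:**
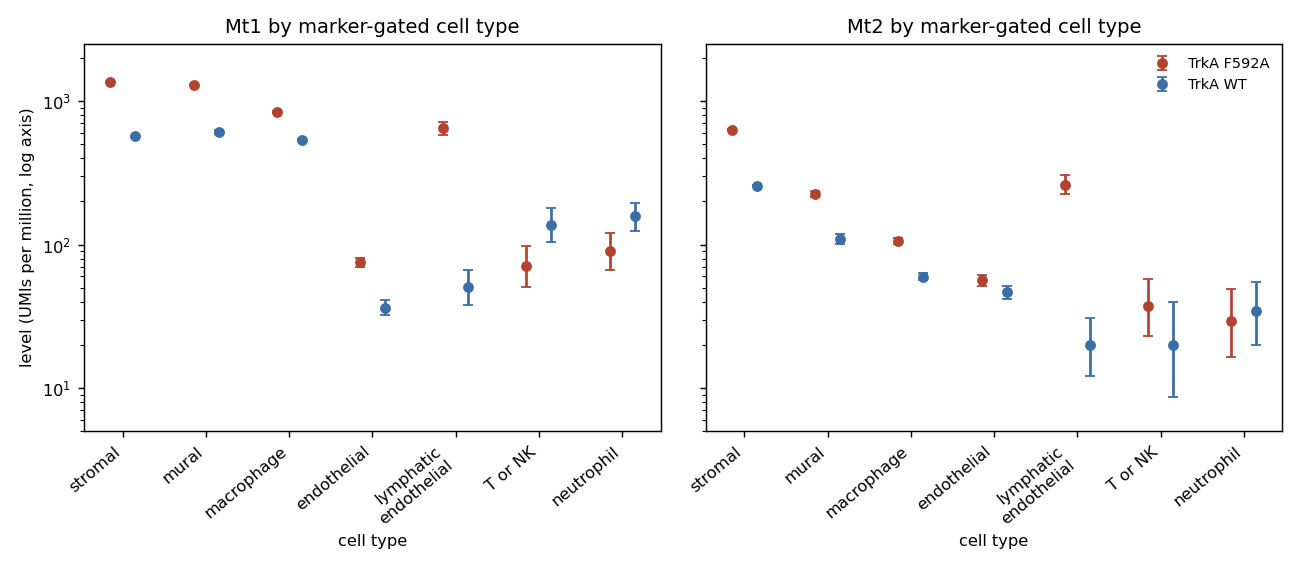
Mt1 (left) and Mt2 (right) in CPM on a log axis in 7 marker-gated cell types, with TrkA F592A left of TrkA WT and bars for the 95% Poisson interval. Stromal, mural and macrophage levels lie above the other types in both libraries, apart from the F592A lymphatic endothelial cells, where 1 cell holds most UMIs, and F592A lies above WT for both genes in stromal, mural, macrophage and endothelial cells.

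Mural cells, the pericytes and smooth muscle cells around vessels, had Mt1 levels close to those of stromal cells. Mt1 reached 1295 CPM in F592A mural cells, against 612 CPM in WT mural cells, a log2 ratio of 1.08 (1.03 to 1.14). Mt2 reached 225 CPM in F592A mural cells and 110 CPM in WT mural cells, a log2 ratio of 1.04 (0.91 to 1.17). Mt1 was 2.12-fold higher and Mt2 2.05-fold (1.87 to 2.25), and Mt2 was under 2-fold with a stricter gate (log2 ratio 0.92), with cell types from clusters (0.97) and as a mean over cells (0.93). In mural cells 1.02% of 8416 measured genes were 2-fold or more higher in F592A, 3.98% were 1.5-fold or more higher and 8.39% were lower by 1.5-fold or more. The ranks of Mt1 and Mt2 among mural genes at 20 CPM or more were 40 and 47 of 5797.

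Macrophages carried Mt1 at 843 CPM (831 to 856) in F592A and 538 CPM (529 to 547) in WT. Mt2 was 106 CPM in F592A macrophages and 59.8 CPM in WT macrophages. The log2 ratios were 0.65 (0.62 to 0.68) for Mt1 and 0.82 (0.73 to 0.92) for Mt2. Both were past 1.5-fold and under 2-fold. In macrophages 1.89% of 9841 measured genes were higher in F592A by 1.5-fold or more, 0.447% by 2-fold or more, and 4.16% were lower by 1.5-fold or more. The interval of the Mt1 ratio in macrophages did not overlap that in stromal cells, but the difference between cell types has no replicate check.

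Endothelial cells had low levels of both members. Mt1 was 75.5 CPM (70.0 to 81.3) in F592A endothelial cells and 36.4 CPM (32.1 to 41.2) in WT endothelial cells, a log2 ratio of 1.05 (0.84 to 1.26). Part of the difference sat in few cells: the 3 highest F592A cells held 39.4% of the Mt1 UMIs, against 12.5% in WT. Without the 3 highest cells of each library the Mt1 log2 ratio was 0.54 (0.30 to 0.78), and without barcodes shared by the libraries it was 0.82. The median endothelial cell had no Mt1 UMI in either library. Mt2 was 56.2 CPM in F592A and 46.5 CPM in WT endothelial cells, a log2 ratio of 0.27 (0.07 to 0.48), under 1.5-fold. Of 8718 measured endothelial genes, 2.28% were higher in F592A by 1.5-fold or more, 0.367% by 2-fold or more, and 8.84% were lower by 1.5-fold or more.

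The remaining types rest on few UMIs. T or NK cells had 38 Mt1 UMIs in F592A and 55 in WT, or 71.3 CPM (50.5 to 97.9) and 138 CPM (104 to 180). Neutrophils had 46 Mt1 UMIs in F592A and 78 in WT, or 90.7 CPM (66.4 to 121) and 157 CPM (124 to 196). Mt1 was thus lower in F592A in these 2 types under this gate, with log2 ratios of -0.95 in T or NK cells and -0.79 in neutrophils. Cell types taken from clusters turned both directions round, to 0.80 and 0.33, and a looser gate gave 0.46 in neutrophils. Without the 3 highest cells of each library the values were -0.29 in T or NK cells and -0.58 in neutrophils. In lymphatic endothelial cells Mt1 was 645 CPM in F592A and 51.0 CPM in WT, but 1 F592A cell held 354 of 418 Mt1 UMIs and 157 of 170 Mt2 UMIs. That cell had 11 UMIs of Prox1, the lymphatic regulator, together with 190 UMIs of the stromal collagen gene Col1a1. The other 52 F592A cells of the class stood at 103 CPM for Mt1 and 20.9 CPM for Mt2.

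The order of Mt1 levels was stromal, mural, macrophage, lymphatic endothelial, neutrophil, endothelial and T or NK in F592A cells. In WT cells it was mural, stromal, macrophage, neutrophil, T or NK, lymphatic endothelial and endothelial. In F592A the intervals of neutrophil, endothelial and T or NK cells overlapped their neighbours, and in WT those of neutrophils and T or NK cells overlapped, as did those of both endothelial types. Stray RNA from lysed cells is one source of UMIs in droplets, and stromal collagen is set beside Mt1 as a rough scale only. The collagen genes are also markers of the stromal gate, which by itself lowers them in other types. Mt1 was also high in mural cells and macrophages, so stromal cells need not be the only source of stray Mt1. The part of stray RNA in the Mt1 levels was not tested. The summed level of Col1a1, Col1a2 and Col3a1 in macrophages was 1.36% of the stromal level in F592A and 1.82% in WT, whereas Mt1 in macrophages was 62.1% and 94.4% of its stromal level. In endothelial cells collagen was 2.28% of the stromal level in F592A and 3.66% in WT, and Mt1 was 5.57% and 6.39%. In T or NK cells Mt1 was 5.26% of its stromal level in F592A, beside 3.17% for collagen, and 24.2% in WT, beside 4.34%. In neutrophils Mt1 was 6.68% in F592A, beside 3.46% for collagen, and 27.6% in WT, beside 6.45%. In lymphatic endothelial cells Mt1 was 47.5% in F592A, beside 4.89% for collagen, with most UMIs in 1 cell, and in WT it was 8.94%, below the 15.4% for collagen.

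Per-cell values in stromal cells were higher in F592A at each percentile from the 5th up for Mt1 and from the 16th up for Mt2, and 0 in both libraries below that. A UMI of Mt1 was found in 95.1% of F592A stromal cells and 90.3% of WT stromal cells, and one of Mt2 in 84.7% and 73.1%. With each cell thinned to 2000 UMIs, the Mt1 share was 65.1% (63.6 to 66.5) of 4077 F592A cells and 47.2% (45.9 to 48.5) of 5633 WT cells. The thinned Mt2 share was 46.3% in F592A and 28.4% in WT stromal cells. For comparison, the thinned Mt1 share in endothelial cells was 9.15% in F592A and 7.31% in WT. Endothelial cells had a median of 14894 UMIs in F592A and 11604 in WT, and stromal cells 25027 and 22739. Both members were found together in 83.1% of F592A stromal cells and 69.8% of WT stromal cells before thinning.

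**Figure D2:**
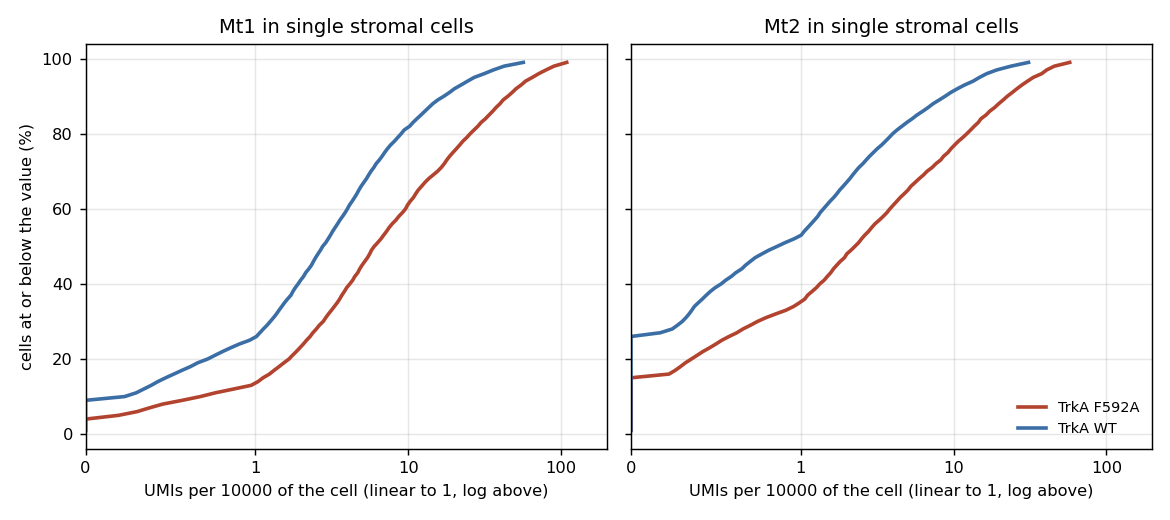
Percentage of stromal cells (vertical axis) at or below a given number of Mt1 (left) or Mt2 (right) UMIs per 10000 of the cell (horizontal axis, linear to 1 and log above). The F592A curve lies right of the WT curve, with Mt1 medians of 5.99 and 2.76.

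The median stromal cell had 5.99 Mt1 UMIs per 10000 in F592A and 2.76 in WT. At the 10th percentile the values were 0.68 in F592A and 0.23 in WT, at the 90th 44.9 and 17.1, and at the 99th 109 and 56.6. For Mt2 the medians were 2.26 in F592A and 0.86 in WT, and the 90th percentiles 22.5 and 8.81. Of F592A stromal cells, 70.1% lay above the WT median of Mt1, 28.1% above the WT 90th percentile and 6.42% above the WT 99th percentile. The highest 10% of cells held 43.6% of Mt1 UMIs in F592A and 47.0% in WT. In mural cells the Mt1 medians were 6.14 in F592A and 3.14 in WT, and in macrophages 4.62 and 3.36.

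Levels ranged more widely across stromal states than between the libraries within a state. Stromal cells were clustered without the metallothionein genes, and 11 of 15 clusters had at least 50 cells in each library. Across these 11, Mt1 ranged from 431 to 4141 CPM in F592A (9.62-fold) and from 306 to 2190 CPM in WT (7.15-fold). Mt2 ranged from 162 to 2289 CPM in F592A and from 106 to 1140 CPM in WT. The highest level of both was in the cluster led by C7 and Myoc, genes for a complement component and myocilin, with Mt1 at 4141 CPM in F592A and 2190 CPM in WT. The lowest F592A level of Mt1 was in the cluster led by Gpha2, Mstn and Chad, with 431 CPM in F592A and 306 CPM in WT.

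**Figure D3:**
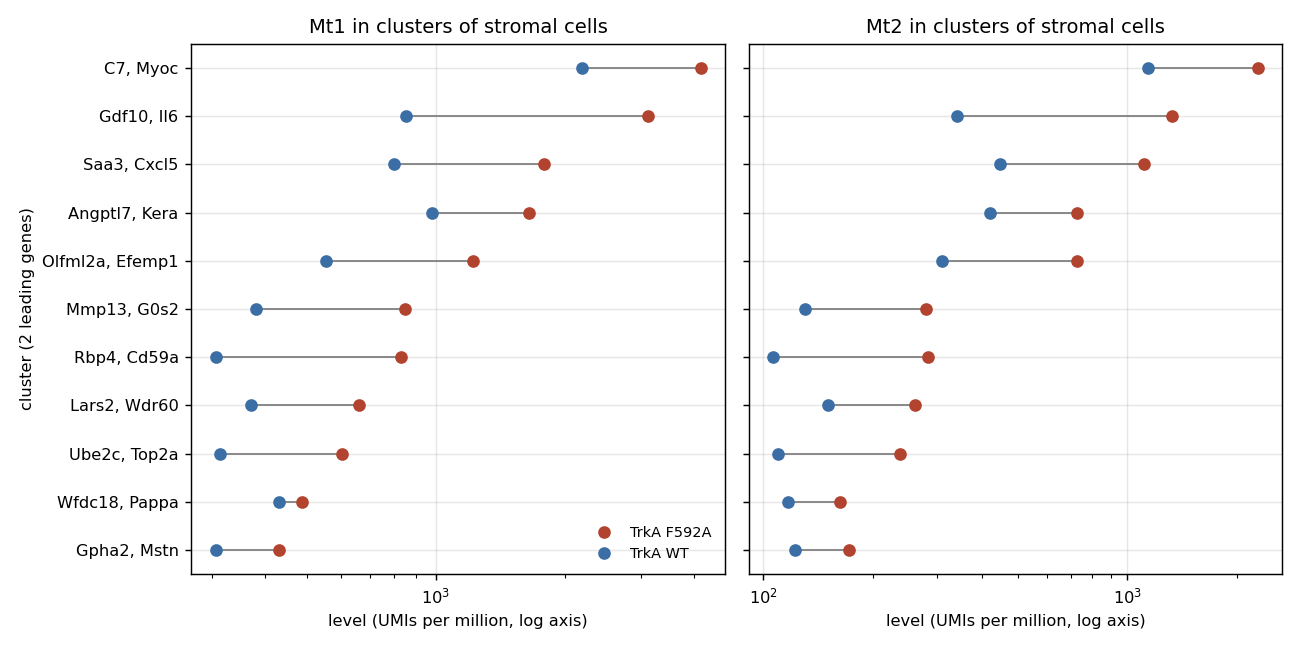
Mt1 (left) and Mt2 (right) in CPM on a log axis in 11 stromal clusters named by 2 leading genes, with TrkA F592A in red and TrkA WT in blue. F592A lies above WT in each, and the gap is widest in the cluster led by Gdf10, Il6 and Ccl11 and narrowest in the cluster led by Wfdc18, Pappa and Inhba for both genes.

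These cells are those whose contrast picked the genes, so their ratios are a description. Both members were higher in F592A in all 11 clusters, with Mt1 log2 ratios between 0.18 and 1.88 and Mt2 log2 ratios between 0.47 and 1.97. The cluster led by Gdf10, Il6 and Ccl11 had Mt1 at 3127 CPM in F592A and 849 CPM in WT, a log2 ratio of 1.88 (1.83 to 1.93). The cluster led by Rbp4, Cd59a and Penk had 831 CPM in F592A and 306 CPM in WT, a log2 ratio of 1.44. At the other end, the cluster led by Wfdc18, Pappa and Inhba had 487 CPM in F592A and 430 CPM in WT, a log2 ratio of 0.18 (0.13 to 0.23). Of the 4 smaller clusters, the one led by Lipk, Gzme and Wfdc3 was lower in F592A, with 499 CPM in 12 F592A cells and 531 CPM in 108 WT cells (log2 ratio -0.09, -0.32 to 0.13). Mt2 in that cluster was 150 CPM in F592A and 224 CPM in WT, a log2 ratio of -0.58 (-1.001 to -0.19). The other small clusters were higher in F592A for both members. The largest of them, led by Hmcn2, Sparcl1 and Dio2, had Mt1 at 2460 CPM in 190 F592A cells and 705 CPM in 44 WT cells (log2 ratio 1.80).

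Gates on fixed stromal markers grouped the cells in another way. Cells that these gates did not place made up 52.8% of F592A and 56.5% of WT stromal cells and were kept as a group of their own. With that group counted, 7 groups had at least 50 cells in each library. Both members were higher in F592A in all 7. The order of the ratios differed from that of the clusters, with the highest Mt1 log2 ratio, 1.596, in cells with the Ptn and Mdk repair markers. Cells with the Gdf10 fibroblast markers had Mt1 at 3646 CPM in 250 F592A cells and 1543 CPM in 51 WT cells, a log2 ratio of 1.24. Adventitial marker cells had 1761 CPM in F592A and 664 CPM in WT, and cells with the Ptn and Mdk repair markers had 1386 CPM and 459 CPM. Tenocyte marker cells had lower levels, 668 CPM in 962 F592A cells and 408 CPM in 1180 WT cells, a log2 ratio of 0.71 (0.68 to 0.74). Fibrochondrocyte marker cells had 486 CPM in F592A and 376 CPM in WT for Mt1, a log2 ratio of 0.37 (0.29 to 0.45), and 187 CPM and 99.5 CPM for Mt2, a log2 ratio of 0.91 (0.76 to 1.05). Cells with the Gdf10 fibroblast markers made up 6.08% of F592A and 0.897% of WT stromal cells. Placing the WT level of each group at the F592A mixture of groups gave 603 CPM for Mt1, against 570 CPM at the WT mixture, a log2 difference of 0.08. The unplaced cells entered as a single group, so a shift of states among them is not covered. Weighting the 7 groups with enough cells equally, the unplaced cells included, gave log2 ratios of 1.18 for Mt1 and 1.10 for Mt2. Equal weights for the 11 clusters with enough cells gave 1.08 for Mt1 and 1.16 for Mt2.

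Depth and mitochondrial share moved with the levels. Stromal cells of both libraries were split into 4 bins of equal size. By total UMIs, Mt1 in the shallowest bin was 2319 CPM in F592A and 994 CPM in WT, and in the deepest bin 877 CPM and 378 CPM, with log2 ratios between 1.21 and 1.52 over the 4 bins. In the bin with the lowest mitochondrial share Mt1 was 2252 CPM in 1518 F592A cells and 988 CPM in 931 WT cells, a log2 ratio of 1.19. In the bin with the highest mitochondrial share it was 724 CPM in 727 F592A cells and 422 CPM in 1722 WT cells, a log2 ratio of 0.78, and the middle bins stood at 0.77 and 0.79. The median mitochondrial share was 3.96% in F592A and 4.78% in WT stromal cells. Gm42418 had log2 ratios of 1.33 in stromal, 1.13 in mural, 0.81 in macrophage and 0.90 in endothelial cells. Totals without Gm42418 and AY036118 gave a log2 ratio of 1.33 for Mt1 and 1.38 for Mt2 in stromal cells. The part of mitochondrial share in the stromal difference was not tested.

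Over whole cell types, the proportion of the 2 members differed between types more than between libraries, apart from endothelial cells and the types with few UMIs. It is a share of UMIs counted at transcript ends and is not corrected for length. Mt1 was 68.2% (68.0 to 68.4) of Mt1 plus Mt2 UMIs in F592A stromal cells and 68.9% (68.7 to 69.2) in WT stromal cells. In stromal cells with at most 15000 UMIs it was 67.8% in F592A and 66.1% in WT. Some stromal groups differed more between libraries, in both directions. The share was 72.3% in F592A and 79.1% in WT fibrochondrocyte marker cells, but 71.2% and 66.2% with Gdf10 fibroblast markers and 69.9% and 64.1% with repair markers. Tenocyte marker cells had 72.4% and 73.0%. It was 85.2% in F592A and 84.8% in WT mural cells, and 88.8% (88.4 to 89.3) and 89.99% (89.5 to 90.5) in macrophages. Endothelial cells had 57.3% (54.5 to 60.1) in F592A and 43.9% (39.9 to 48.1) in WT. The stromal, mural and macrophage shares lay outside each other's intervals within each library, so the UMIs of these 3 types did not come in 1 ratio.

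**Figure D4:**
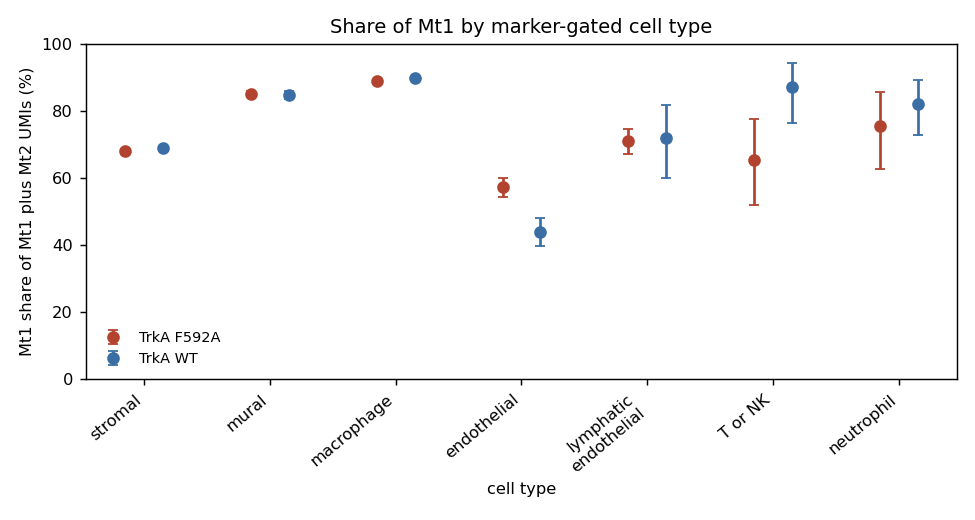
Mt1 as a percentage of Mt1 plus Mt2 UMIs in 7 marker-gated cell types, with TrkA F592A left of TrkA WT and bars for the exact binomial 95% interval. Stromal cells sit near 68 to 69% in both libraries, below mural cells and macrophages, and endothelial cells have the lowest WT share.

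The other family members were rare. Mt3 had 325 UMIs in all F592A cells and 146 in all WT cells, or 1.91 and 0.714 CPM. In F592A, 3 cells held 38.2% of them, and 183 of the 325 UMIs lay in cells without a gated type. In stromal cells Mt3 had 115 UMIs in F592A and 96 in WT, a log2 ratio of 0.62 (0.21 to 1.02). Mt4 had 6 UMIs in F592A and 8 in WT, too few for a ratio.

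Zinc genes were next described in stromal cells. The transcription factor gene Mtf1 was at 8.6 CPM in F592A and 9.0 CPM in WT stromal cells, a log2 ratio of -0.07 (-0.19 to 0.06). The exporter gene Slc30a1 was at 4.5 CPM in F592A and 4.4 CPM in WT, a log2 ratio of 0.04 (-0.13 to 0.22). None of 6 measured zinc exporters and none of 12 measured zinc importers was past 1.5-fold in stromal cells, where 3.2% of all measured genes were higher and 5.03% lower by that fold, so counts of 0 in lists of this size lie near the background. The list medians were -0.03 and -0.04. The exporter furthest up was Slc30a5, at 30.3 CPM in F592A and 28.8 CPM in WT, followed by Slc30a7 with a log2 ratio of 0.06, and furthest down were Slc30a9 (-0.16) and Slc30a4 (-0.10). The plasma membrane importer gene Slc39a1 was at 132 CPM in F592A and 113 CPM in WT, a log2 ratio of 0.23, and Slc39a13 had 0.04, Slc39a7 -0.16 and Slc39a6 -0.03. Among 7 measured metal-responsive genes, Selenoh, for a nuclear selenoprotein, was lower at 56.9 CPM in F592A and 93.9 CPM in WT. Selenow had a log2 ratio of -0.48 and Ndrg1 one of 0.04.

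Of all measured stromal genes, 3.2% were higher and 5.03% lower by 1.5-fold or more, and the counts below stand beside those shares. Of 15 copper genes, Steap4, a metalloreductase, was past 1.5-fold, with 39.0 CPM in F592A and 21.2 CPM in WT. Cox17, the copper chaperone of cytochrome oxidase, had a log2 ratio of 0.55, while Commd1 had -0.48 and Ccs, the copper chaperone of superoxide dismutase, had -0.40. No iron gene of 12 was past 1.5-fold, and such a count in a list of this size lies near the background. The ferritin genes Fth1 and Ftl1 had log2 ratios of -0.41 and -0.43, while the ferroxidase gene Cp and the iron exporter gene Slc40a1 had 0.51 and 0.43. The NRF2 list, genes of the oxidant response, had 2 of 19 lower and none higher, with a median of -0.20. The lower ones were Gsta4, at 0.94 CPM in F592A and 5.76 CPM in WT, and Slc7a11, at 1.06 and 2.84 CPM. Txn1 and Prdx1 had log2 ratios of -0.34 and -0.30, while Gstm1 had 0.38 and Txnrd1 had 0.07.

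The glucocorticoid list had 2 of 18 higher, Zbtb16 and Sult1a1, both under 5 CPM, beside 3.2% of all measured stromal genes. The receptor gene Nr3c1 was at 76.1 CPM in F592A and 75.6 CPM in WT stromal cells, a log2 ratio of 0.01 (-0.03 to 0.05). Cebpd had a log2 ratio of 0.39 and Errfi1 one of 0.25. Nfkbia had -0.39, and Tsc22d3, a classic glucocorticoid target, had -0.32. The STAT3 and acute phase list had 5 of 20 higher and none lower, with a median of 0.20. Of all measured stromal genes, 3.2% were higher and 5.03% lower. The cytokine gene Il6 was at 74.2 CPM in F592A and 19.5 CPM in WT, a log2 ratio of 1.93 (1.87 to 1.99). Serpina3n, an acute phase protease inhibitor, was at 174 CPM in F592A and 96.5 CPM in WT, and Fgl2 at 38.0 and 19.9 CPM. Lcn2 and Lrg1 were the other two, while Hp and Timp1 had log2 ratios of -0.41 and -0.33.

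**Figure D5:**
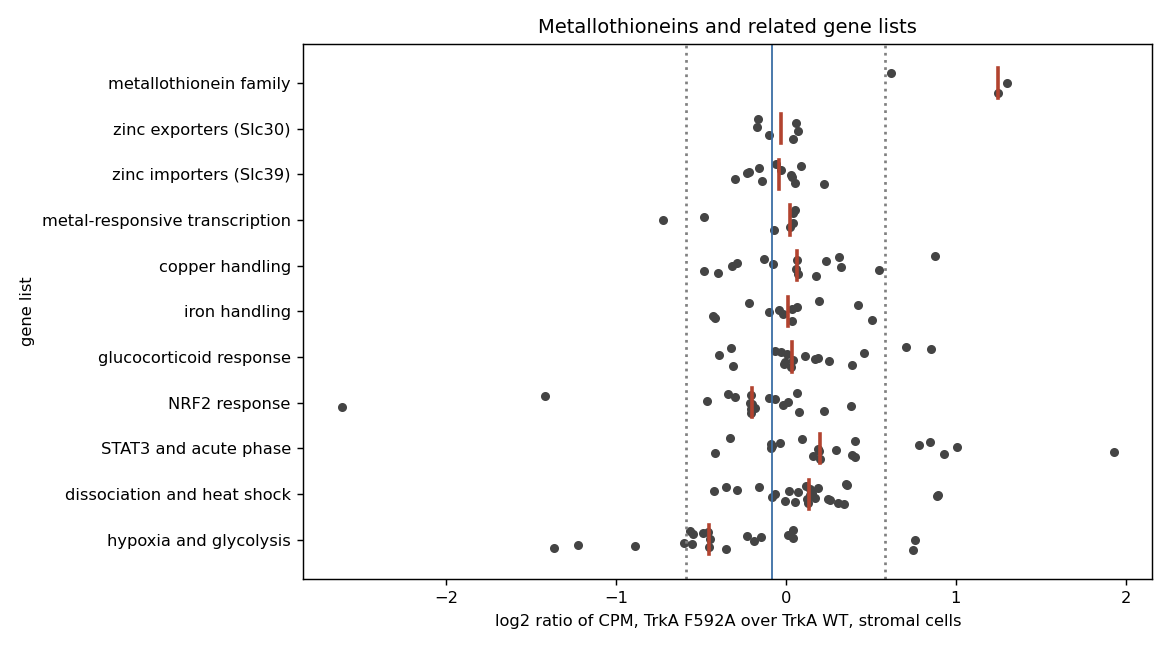
Log2 ratio of CPM in stromal cells, TrkA F592A over TrkA WT, for the measured genes (points) of the metallothionein family and 10 gene lists, with list medians as red lines, the median of all genes as a blue line and 1.5-fold as dotted lines. The zinc lists lie within 1.5-fold, and the STAT3 and acute phase list has 5 genes to the right of it, where 3.2% of all measured genes lie.

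Of 26 dissociation and heat shock genes, Hspa1a and Hspa1b, inducible chaperone genes, were higher. Hspa1a was at 126 CPM in F592A and 67.8 CPM in WT, and Hspa1b at 146 and 78.7 CPM. Ier2 and Klf2 had log2 ratios of -0.42 and -0.35. The hypoxia and glycolysis list had 2 of 20 higher (Hk2 at 0.76 and Adm at 0.75 on the log2 scale) and 4 lower, with a median of -0.45. Gapdh was at 676 CPM in F592A and 1024 CPM in WT, and Tpi1 had a log2 ratio of -0.56. Over the 10 lists, 12 of 148 measured genes were higher and 7 lower in stromal cells, which is 8.11% and 4.73%, beside 3.2% and 5.03% of all measured genes. With TMM factors, which centre the bulk of genes near 0, 14 of them were higher and 6 lower. The shares of all measured genes under TMM factors were not computed, so 3.2% and 5.03% cannot be set beside those counts.

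In the other main cell types most zinc transporters also lay within 1.5-fold. The exceptions were 1 of 5 exporters in mural cells, Slc30a1, at 11.7 CPM in F592A and 7.3 CPM in WT (log2 ratio 0.68, 0.13 to 1.24), and 1 of 8 importers in endothelial cells, Slc39a3, at 7.3 CPM in F592A and 11.2 CPM in WT (log2 ratio -0.62, -1.11 to -0.13). In macrophages 0 of 6 exporters and 0 of 10 importers were past 1.5-fold in either direction. Over all measured genes, 3.98% were higher and 8.39% lower in mural cells, and 1.89% and 4.16% in macrophages. In endothelial cells these shares were 2.28% and 8.84%. Of 26 dissociation and heat shock genes, 4 were higher in F592A mural cells, 2 in macrophages and 0 in endothelial cells, and 0 were lower in each. Hspa1b was among the higher ones in mural cells (273 CPM in F592A, against 165 CPM in WT) and macrophages (90.9 CPM in F592A, against 44.3 CPM in WT). In the STAT3 and acute phase list, 1 of 14 measured genes was higher and 2 were lower in mural cells. In macrophages 0 of 17 were higher and 2 lower, and in endothelial cells 2 of 14 were higher and 1 lower. Il6 had log2 ratios of 0.06 in mural cells and 0.30 in macrophages, and in endothelial cells it was 109 CPM in F592A and 65.8 CPM in WT. Of 7 measured metal-responsive genes, 2 were higher and 2 lower in mural cells, 0 and 0 in macrophages, and 0 and 2 in endothelial cells. Selenoh was lower in F592A mural cells (58.4 CPM, against 107 CPM in WT) and endothelial cells (63.6 CPM, against 135 CPM in WT). Higher in mural cells were Slc30a1, given above, and Ndrg1, at 53.8 CPM in F592A and 24.4 CPM in WT (log2 ratio 1.14). The other lists are not described in these cell types.

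Likeness to the pair was described in 2 ways. Over the 14 profiles of 7 cell types in 2 libraries, on log2(CPM + 1), genes with high Pearson correlations to summed Mt1 and Mt2 were Cyp2u1 (0.87), Fhit (0.85), Col6a5 (0.84) and Sh3pxd2b (0.81). Mt1 and Mt2 correlated at 0.83 with each other. The profiles share libraries and depth, and Cyp2u1, Fhit and Col6a5 were under 3 CPM in stromal cells. Over single stromal cells thinned to 5000 UMIs, Mt1 and Mt2 had a Spearman correlation of 0.71 in F592A and 0.56 in WT. Ranked by the lower of the 2 libraries' correlations, the 5 genes most like the pair were the ferritin gene Fth1 (0.52 in F592A and 0.41 in WT), the proteoglycan gene Dcn (0.44 and 0.37), Serpina3n (0.41 and 0.36), the lipopolysaccharide-binding protein gene Lbp (0.39 and 0.36) and the complement inhibitor gene Serping1 (0.48 and 0.36). Fth1 thus went with the pair from cell to cell in each library, while its summed level was 2044 CPM in F592A and 2725 CPM in WT stromal cells. Mtf1 had correlations of -0.01 in F592A and 0.04 in WT.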

How the data were processed

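The deposited data are whole UMI counts per gene and cell barcode. Per the file headers, the authors counted reads with Cell Ranger 6.0.1. Cell Ranger 2.1.1 and Seurat, with build mm10, are listed in the submitters' processing notes, and the sources do not settle the version. Every deposited barcode had at least 500 UMIs. Barcodes with at least 1000 UMIs, at least 500 genes and at most 15% mitochondrial UMIs were kept, and Scrublet doublets (215 in F592A, 373 in WT) were left out. Total depth was 181472230 UMIs in F592A and 222874195 in WT.

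Cell types came from a per-cell marker score (scanpy 1.11.5): each marker was scaled to its 99th percentile, and the highest panel had to reach 0.1 with the next under 0.5 of it and 3 markers detected. Stromal states came from similar gates (0.2 and 0.7) and from Leiden clusters made without Mt1 to Mt4. CPM is a gene's summed UMIs per 1000000 UMIs of its class. Genes with at least 100 UMIs over both libraries were measured, and higher or lower means at least 1.5-fold. Named list genes were the 2 furthest above and below 0 with at least 20 CPM, with Mtf1, Slc30a1 and Nr3c1 always; other list genes are named because they complete a count, and were chosen after their values were seen, as were the clusters and genes named in other cell types. Shares of cells were also taken after thinning each cell to 2000 UMIs. Alternatives were cell types from clusters, other gates, size factors (median of ratios, and TMM from edgeR 4.0.16), stricter cell filters, doublets kept, means over cells and other gene minimums. The ratio and its interval were tested on simulated sums with counting error only, so that test does not cover variation between cells or mice. Members, lists and rules were chosen with earlier results of these data known. One gene that the likeness rule named is not reported here.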

Additional observations from a re-analysis of the deposited data

Results flagged for a closer look

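Mt1 was lower in F592A than in WT in 2 cell types and higher in the other 5. The log2 ratio was -0.95 in T or NK cells, from 38 UMIs in F592A and 55 in WT, and -0.79 in neutrophils, from 46 UMIs in F592A and 78 in WT. Each cell type has 1 library per genotype, so the difference between cell types was not tested. Without the 3 highest cells of each library the T or NK value was -0.29 and the neutrophil value -0.58. The lymphatic endothelial value, among the other 5, then fell to -0.0021. Cell types from clusters turned both lower values round, to 0.80 in T or NK cells and 0.33 in neutrophils.

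Barcodes that did not pass the filter, 2013 in F592A and 3269 in WT, also carried both members. Mt1 stood at 320 CPM (304 to 337) in these F592A barcodes and 234 CPM (223 to 244) in the WT ones. Mt2 stood at 186 CPM in F592A and 113 CPM in WT. Called doublets had Mt1 at 864 CPM in F592A and 468 CPM in WT.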

How the results depend on the processing

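No paired analysis was possible because each genotype has 1 pooled library. All log2 ratios below are F592A over WT. For Mt1 plus Mt2 the log2 ratio stayed above 0 under all 12 alternatives in stromal (main value 1.27), mural (1.08), macrophage (0.67) and endothelial cells (0.67). In stromal cells it was 1.25 with cell types from clusters, 1.25 with a looser gate, 1.35 with median-of-ratios factors, 1.35 with TMM factors (edgeR 4.0.16), 1.20 at a mitochondrial share of at most 5% and 1.35 without Gm42418 and AY036118. In mural cells it was 1.00 with a stricter gate, 1.16 with either set of factors, 1.37 at a mitochondrial share of at most 5%, 1.00 as a mean over cells and 1.22 without Gm42418 and AY036118. In macrophages it was 0.63 with cell types from clusters, 0.74 with either set of factors and 0.79 without Gm42418 and AY036118. In endothelial cells it was 0.40 as a mean over cells, 0.52 without shared barcodes and 0.43 without the 3 highest cells. The difference in the share of stromal cells with an Mt1 UMI was 17.9 percentage points at 2000 UMIs and 12.3 at 5000 UMIs. Some smaller classes changed direction. Without the 3 highest cells, lymphatic endothelial Mt1 had a log2 ratio of -0.0021 and Mt2 one of -0.47. Mt1 in T or NK cells was 0.80 with cell types from clusters, and Mt1 in neutrophils was 0.33 with cell types from clusters and 0.46 with a looser gate. The cause of these changes was not tested. The 3 highest cells were picked by their own UMIs of the gene, so leaving them out shows only how much they held. Dropping shared barcodes, the 3 highest cells or Gm42418 and AY036118 was chosen after seeing the data. The counts of 12 higher and 7 lower list genes stayed within 1.5 times under each alternative. Few UMIs limit the T or NK, neutrophil and lymphatic values.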

Other observations

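Some genes ran against the pair from cell to cell in each library. Their correlations were further from 0 in F592A, but so were those of the positive genes named and that of Mt1 with Mt2 (0.71 in F592A and 0.56 in WT). At an equal depth of 2000 UMIs, stromal cells had a mean of 3.16 Mt1 UMIs in F592A and 1.32 in WT. The part of this in the gap between correlations was not tested. Over stromal cells thinned to 5000 UMIs, the lowest Spearman correlations with summed Mt1 and Mt2 were those of the fibrillar-collagen-associated gene Col12a1 (-0.45 in F592A and -0.36 in WT), the actin-binding peptide gene Tmsb4x (-0.40 and -0.36), C1qtnf3 (-0.51 and -0.32) and the contractile genes Tagln (-0.38 and -0.32) and Cald1 (-0.41 and -0.32). Next below the first 5 genes with positive values stood Ifitm3 (0.42 in F592A and 0.34 in WT) and the surface antigen gene Ly6c1 (0.39 and 0.32). The complement genes C3 (0.35 and 0.32) and C4b (0.37 and 0.32) followed. These are descriptions of cells within 1 library each, named by their place in the ranking after it was computed.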
